A study of Homo sapiens with 7 samples.

Results

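LEF1, the TCF factors, beta-catenin and the feedback genes of the canonical WNT pathway were followed in 7 RNA-seq libraries of 501Mel, a pigmented human melanoma cell line. The 10 genes, chosen by symbol, were the DNA-binding factors LEF1, TCF7, TCF7L1 and TCF7L2, their coactivator CTNNB1, the feedback genes AXIN2, NKD1, RNF43 and ZNRF3, and SP5, a transcription factor that WNT signaling induces. The table held 21305 genes and values for 8 of the 10, while TCF7L1 and SP5 were not analysed here. All libraries came from cells carrying a lentiviral, doxycycline-inducible short hairpin RNA (shRNA), and all were labelled as induced. The hairpin targeted the bacterial gene lacZ in the control group (shlacZ, n = 3) and the long non-coding RNA GRASLND in the other groups (sh4, n = 2, and sh8, n = 2). The cells were pools of transduced cells after puromycin selection rather than single clones. How many such pools were made per hairpin is not stated, so effects of hairpin and pool cannot be told apart. The labels do not say whether replicates came from separate cultures, so p-values measure only the spread between these libraries.

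In canonical WNT signaling, a ligand bound to a Frizzled receptor and its LRP coreceptor stops the destruction complex from marking beta-catenin for degradation. Beta-catenin then enters the nucleus and binds LEF1 or a TCF factor, which sit on DNA at a short core ending in CAAAG. Several of the genes switched on in this way act against the pathway and are widely used as its readout, among them AXIN2, NKD1, RNF43 and ZNRF3. In the melanocyte lineage LEF1 and beta-catenin are known partners of MITF, the lineage factor.

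The core was searched as 7 letters, A or T in each of the first 2 places and then CAAAG, on both strands, in the 250 bases before each start in the RefSeq promoter table (GRCh38.p14). Of 35116 windows, 12.0% held at least 1 core. The table had 11 windows for 7 of the 10 genes, namely LEF1, TCF7, TCF7L1, TCF7L2, RNF43, CTNNB1 and SP5, and 3 of the 11 held a core. AXIN2, NKD1 and ZNRF3 had no entry. The stretches around the cores of the measured genes are shown because they are the letters that LEF1 and the TCF factors are known to read. Capitals mark the core, which on the shown strand of TCF7L2 reads in the opposite orientation.
TCF7: gccccactggAACAAAGgaggagagag
TCF7L2: aaatatcaggCTTTGTTcttttgattg
The TCF7 core began 50 bases before the start, in the window chr5:134123368-134123617 (plus strand), and the TCF7L2 core 133 bases before the start, in the window chr10:113126383-113126632 (plus strand). Both windows lie before an internal start, within the body of the gene. The third window with a core was that of SP5 (chr2:170715087-170715336, plus strand), which held 3.
For RNF43, the gene with opposite changes under the hairpins, the 189 bases just outside the annotated gene are shown (chr17:58417596-58417784, minus strand). They hold no core and therefore no capitals.
RNF43: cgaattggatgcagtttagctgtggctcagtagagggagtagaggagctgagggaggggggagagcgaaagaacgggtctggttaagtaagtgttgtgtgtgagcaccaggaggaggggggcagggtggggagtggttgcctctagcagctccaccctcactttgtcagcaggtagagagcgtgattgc
A match is a description of letters, and the absence of a match in a window says nothing about binding.

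Reads counted to the genes of the table numbered between 13337317 and 22855232 per library, which is less than all reads sequenced. None of the 8 members with values had fewer than 203 reads in any library. Values are normalized counts, that is, reads divided by 1 size factor per library. GRASLND, the targeted RNA, stood at 309, 330 and 290 with shlacZ, at 175 and 131 with sh4 and at 227 and 163 with sh8. Every hairpin library lay below every control. GRASLND fell by 0.85 on the log2 scale in both hairpins against control (SE 0.19, adjusted p = 0.0402) and by 1.02 under sh4 (SE 0.21, adjusted p = 0.00662). Under sh8 the log2 fold change was -0.68 (SE 0.21, adjusted p = 0.110), which did not pass.

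Of the 3 measured LEF/TCF genes, only LEF1 passed the test in any comparison. It lies on the minus strand of chromosome 4 (hg38, chr4:108047545-108168956). Its normalized counts were 1258, 2134 and 2166 with shlacZ, 5029 and 7072 with sh4, and 3170 and 3243 with sh8. All 4 libraries with a GRASLND hairpin lay above all 3 controls, the sh4 libraries lay above the sh8 libraries, and the lowest control was shlacZ replicate 1. The group means were 1853 ± 515 (SD, n = 3), 6051 ± 1445 (SD, n = 2) and 3206 ± 51.3 (SD, n = 2), that is, 3.27 times the control under sh4 and 1.73 times under sh8. Fold changes in the tests are on the log2(normalized count + 1) scale and come from limma over 15420 genes, and a result passed at a Benjamini-Hochberg adjusted p under 0.05. LEF1 was 1.28 higher in both hairpins together (SE 0.29, adjusted p = 0.0398) and 1.73 higher under sh4 (SE 0.23, adjusted p = 0.000939). Under sh8 the difference of 0.83 (95% interval 0.32 to 1.35) had an adjusted p of 0.0894, and sh4 against sh8 differed by 0.90 (0.33 to 1.46) with an adjusted p of 0.0640. The order of the levels was therefore sh4, sh8, shlacZ, with neither pair of neighbours past the threshold. Each of these 2 differences passed in 4 of 16 alternatives, namely upper quartile scaling (adjusted p = 0.0497 for sh8 against shlacZ and 0.0428 for sh4 against sh8), quantile normalization (0.0451 and 0.0208), the replicate number as a block (0.0114 and 0.00801) and without shlacZ replicate 1 (0.0382 and 0.00426).

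The LEF1 call under sh4 passed in all 16 alternatives. The call for both hairpins together was lost when any 1 of the 3 shlacZ or 2 sh4 libraries was left out, with an adjusted p between 0.0603 and 0.130. The study drew attention to LEF1 on these same libraries, and its list of upregulated WNT genes also held NKD1 and AXIN2. The rise of these genes here is therefore not independent evidence. LEF1-AS1, an antisense RNA at the same locus, had between 9.29 and 20.3 normalized counts in the 7 libraries. The libraries were stranded, but the strand setting of the counting is not given in the sources used here.

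The other measured DNA-binding factors moved less than LEF1 under each hairpin, and neither passed in the main fit. TCF7 (chr5:134114681-134151865, plus strand), which encodes the factor TCF-1, had 1033, 964 and 933 normalized counts in the shlacZ libraries, 1162 and 970 under sh4 and 1170 and 1225 under sh8. The sh8 libraries lay above the controls and 1 sh4 library lay among them. For sh4 the TCF7 log2 fold change was 0.12 (-0.16 to 0.41, adjusted p = 0.536) and for sh8 it was 0.30 (0.01 to 0.58, adjusted p = 0.252), so neither passed. TCF7 overlaps SKP1, a gene on the opposite strand with 1311 to 1735 normalized counts.

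TCF7L2 (chr10:112950247-113167678, plus strand), which encodes TCF-4, had 1415, 1266 and 1093 normalized counts in the shlacZ libraries, 1647 and 1643 under sh4 and 1499 and 1391 under sh8. Both sh4 libraries lay above the controls, and 1 sh8 library lay below the highest control. The log2 fold change of TCF7L2 was 0.39 under sh4 (0.10 to 0.69, adjusted p = 0.0584) and 0.21 under sh8 (-0.09 to 0.50, adjusted p = 0.453). For both hairpins together it was 0.30 (adjusted p = 0.187) for TCF7L2 and 0.21 (adjusted p = 0.326) for TCF7. The sh4 value of TCF7L2 passed under upper quartile scaling (adjusted p = 0.0496), under quantile normalization (0.0350) and without shlacZ replicate 1 (0.0129).

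Levels per kb of exon put the family on 1 scale. In the shlacZ libraries the mean was 346 normalized counts per kb for LEF1, 187 for TCF7L2 and 96.7 for TCF7. Of the summed level of these 3 genes, LEF1 made up 42.9%, 58.4% and 61.3% in the shlacZ libraries, 72.3% and 79.5% under sh4 and 63.6% and 64.9% under sh8. Every GRASLND hairpin library had a higher LEF1 share than every control, and the share of TCF7 was 15.6% ± 2.71 (SD, n = 3) in shlacZ, against 7.33% ± 2.18 (SD, n = 2) for sh4 and 12.7% ± 0.382 (SD, n = 2) for sh8. The level of TCF7 itself did not fall, with a mean of 106 normalized counts per kb under sh4 and 119 under sh8. TCF7L1 is not part of this sum. The share depends on the gene length used, which lies between 5.361 and 10.093 kb for these genes when all annotated exons are joined. With the canonical transcript of each gene the mean LEF1 share was 45.6% in shlacZ, 69.5% under sh4 and 55.5% under sh8, and the mean TCF7 share was 26.6%, 13.7% and 22.5%.

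**Figure D1:**
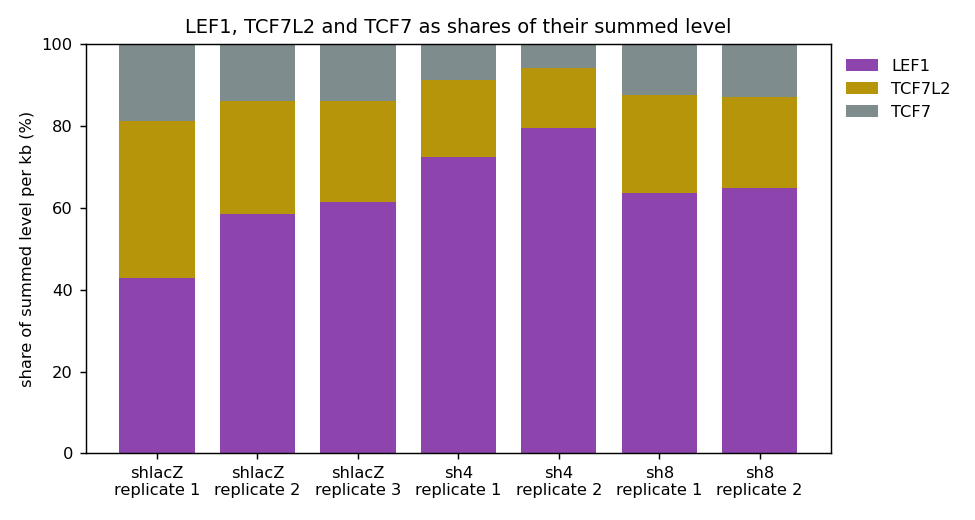
Stacked bars show LEF1, TCF7L2 and TCF7 as percent of their summed normalized count per kb of joined exons, 1 bar for each of the 7 libraries. LEF1 takes 42.9% to 61.3% in the shlacZ libraries, 63.6% and 64.9% under sh8 and 72.3% and 79.5% under sh4.

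CTNNB1 (chr3:41194741-41260096, plus strand), which encodes beta-catenin, fell under sh4, where LEF1 rose. Its normalized counts were 24086, 28562 and 27071 in the shlacZ libraries, 19061 and 19377 under sh4 and 26183 and 32016 under sh8. The sh4 libraries lay below all others, and the sh8 libraries lay on either side of the control mean. CTNNB1 fell by 0.46 on the log2 scale under sh4 (SE 0.14, adjusted p = 0.0348), or 0.723 times the control, and the sh8 value was 0.13 (-0.18 to 0.43, adjusted p = 0.662). The hairpins differed by -0.59 (SE 0.15, adjusted p = 0.0424), and for both together the value was -0.17 (adjusted p = 0.628). The fall under sh4 was -0.18 under quantile normalization (adjusted p = 0.248), and it did not pass without shlacZ replicate 2 or 3 or without either sh4 library (adjusted p up to 0.168). The difference between hairpins passed in 9 of 16 alternatives, but in only 1 of the 7 fits with a library left out (log2 difference -0.74 to -0.45). CTNNB1 was nonetheless the gene with the highest level per kb of the 8 in every group, with a mean of 2260 in shlacZ, 1634 under sh4 and 2475 under sh8. It overlaps ULK4 on the opposite strand, which had 107 to 150 normalized counts in shlacZ, 304 and 305 under sh4 and 91.9 and 113 under sh8.

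Among the feedback genes, NKD1 rose most. NKD1 binds Dishevelled and damps the signal downstream of the receptor. It lies at chr16:50548396-50649249 (plus strand) and had 622, 843 and 847 normalized counts in the shlacZ libraries, 2716 and 3673 under sh4 and 1417 and 1274 under sh8. The 3 groups did not overlap, with sh4 highest and shlacZ lowest. NKD1 was 4.14 times the control under sh4 and 1.75 times under sh8. On the log2 scale it rose by 2.05 under sh4 (SE 0.18, adjusted p = 0.000110), by 0.82 under sh8 (SE 0.18, adjusted p = 0.0400) and by 1.43 in both together (SE 0.33, adjusted p = 0.0420). The difference between hairpins was 1.23 (SE 0.19, adjusted p = 0.00631). Per kb, NKD1 had the lowest mean level of the 8 genes in shlacZ, at 44.4 normalized counts per kb, and stood at 184 under sh4. That rank rests on its long joined exons (17.359 kb). Undivided by length, the shlacZ mean of RNF43 was lower (474 against 771).

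The NKD1 call under sh4 passed in all 16 alternatives, and the sh8 call in 10 of 16, being lost without either sh8 library (adjusted p = 0.187 and 0.229), without shlacZ replicate 2 or 3 (0.0753 and 0.0613) and without sh4 replicate 2 (0.0501). The call for both hairpins was lost when any 1 library of shlacZ or sh4 was left out (adjusted p 0.0596 to 0.150), and that between hairpins without sh4 replicate 2 (0.0812) or sh8 replicate 2 (0.0514). An unnamed transcript inside NKD1 on the same strand (ENSG00000278909) had 60.9 to 101 normalized counts in shlacZ, 452 and 555 under sh4 and 125 and 279 under sh8, so it was also highest under sh4.

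AXIN2 (chr17:65528563-65561648, minus strand), the scaffold of the destruction complex that WNT signaling itself induces, had 1030, 1291 and 1010 normalized counts in the shlacZ libraries, 2378 and 2977 under sh4 and 1547 and 1317 under sh8. All 4 GRASLND hairpin libraries lay above the controls, although sh8 replicate 2 exceeded the highest control by little. AXIN2 was 2.41 times the control under sh4 and 1.29 times under sh8. It rose by 1.27 on the log2 scale under sh4 (SE 0.16, adjusted p = 0.000592), in all 16 alternatives, and the sh8 value was 0.37 (0.02 to 0.72, adjusted p = 0.242). The hairpins differed by 0.90 (SE 0.17, adjusted p = 0.0135), a call lost without sh4 replicate 2 (0.140) or either sh8 library (0.0605 and 0.102). For both together the value was 0.82 (SE 0.26, adjusted p = 0.0906).

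ZNRF3 and RNF43 are paired in function. Both are membrane ubiquitin ligases that remove Frizzled receptors from the cell surface, yet their RNAs did not follow the same course. ZNRF3 (chr22:28883572-29057488, plus strand) had 811, 1022 and 993 normalized counts in the shlacZ libraries, 1584 and 2017 under sh4 and 1225 and 1199 under sh8, and the 3 groups did not overlap. It was 1.91 times the control under sh4 and 1.29 times under sh8. ZNRF3 rose by 0.93 on the log2 scale under sh4 (SE 0.15, adjusted p = 0.00231), in all 16 alternatives. The values of 0.37 under sh8 (0.04 to 0.70, adjusted p = 0.226), 0.65 for both together (0.23 to 1.07, adjusted p = 0.0767) and 0.56 between hairpins (0.19 to 0.93, adjusted p = 0.0706) did not pass. The last passed in 4 of 16 alternatives (adjusted p down to 0.0231, without shlacZ replicate 1).

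RNF43 (chr17:58353676-58417595, minus strand) had 490, 526 and 405 normalized counts in the shlacZ libraries, 682 and 700 under sh4 and 268 and 282 under sh8. The 3 groups did not overlap here either, but the sh8 libraries were the lowest. RNF43 was 1.46 times the control under sh4 and 0.580 times under sh8. On the log2 scale it rose by 0.55 under sh4 (SE 0.15, adjusted p = 0.0276) and fell by 0.77 under sh8 (SE 0.15, adjusted p = 0.0274). The difference of 1.33 between hairpins (SE 0.17, adjusted p = 0.00256) passed in all 16 alternatives. For both hairpins together the value was -0.11 (-0.88 to 0.66, adjusted p = 0.876), since opposite values were averaged.

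The single RNF43 calls against shlacZ were less stable than the difference. The rise under sh4 was lost without shlacZ replicate 3 or either sh4 library (adjusted p 0.110 to 0.141), and the fall under sh8 without shlacZ replicate 2, either sh4 library or either sh8 library (0.0584 to 0.169). A gene without a symbol that overlaps RNF43 on the same strand (ENSG00000285897) had 20.0 to 166 normalized counts, with both extremes in hairpin libraries. How the counting divided reads between the overlapping models was not tested.

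**Figure D2:**
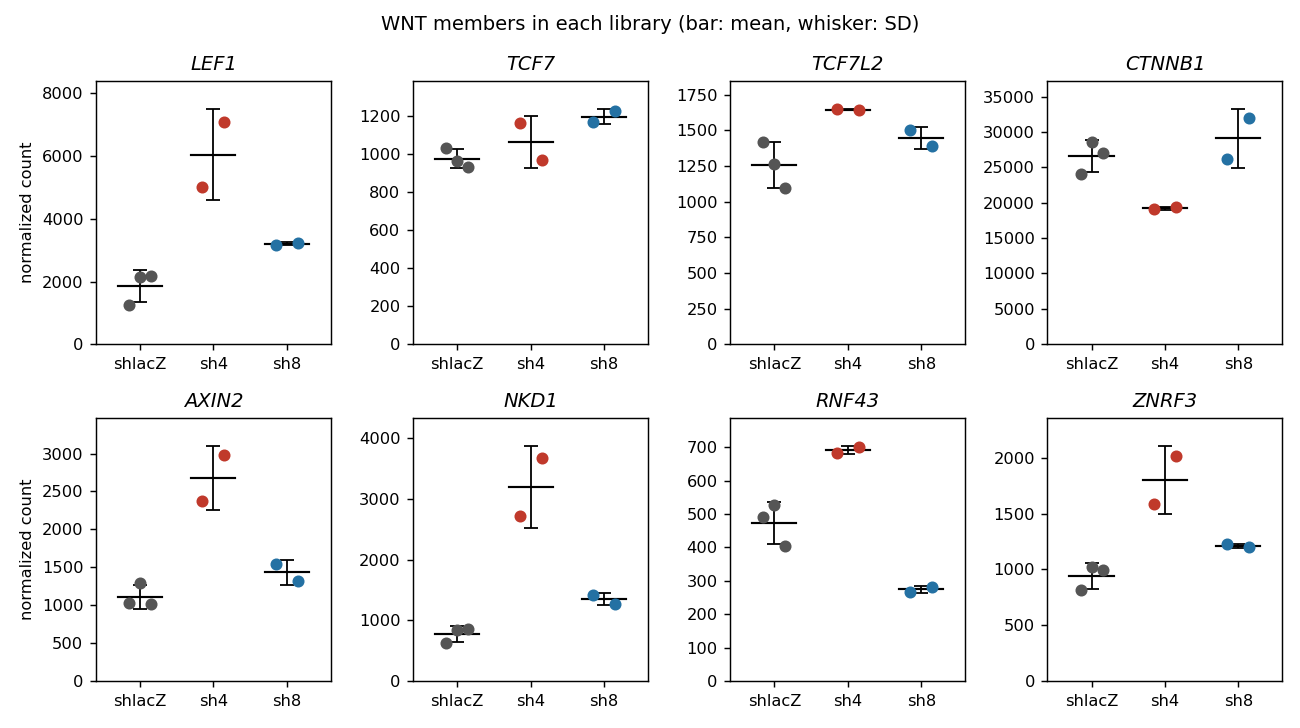
Each panel shows the normalized counts of 1 gene in the 3 shlacZ, 2 sh4 and 2 sh8 libraries, with 1 point per library, a bar at the group mean and whiskers of 1 SD. LEF1, NKD1, AXIN2 and ZNRF3 are highest under sh4 and lowest in shlacZ, RNF43 is lowest under sh8 (268 and 282) and CTNNB1 is lowest under sh4 (19061 and 19377).

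Counted over the 8 genes, 6 passed under sh4, of which 5 were higher (NKD1, LEF1, AXIN2, ZNRF3 and RNF43) and 1 lower (CTNNB1). Of all 15420 genes, 22.5% passed in that comparison, 10.5% higher and 11.9% lower. Under sh8, 2 of the 8 passed, NKD1 higher and RNF43 lower, against 2.92% of all genes (1.38% higher and 1.54% lower). In both hairpins together 2 of the 8 passed, LEF1 and NKD1, both higher, against 4.61% of all genes (2.55% higher and 2.06% lower). Between the hairpins 4 of the 8 passed, RNF43, NKD1 and AXIN2 higher under sh4 and CTNNB1 lower, against 7.0% of all genes (3.67% higher and 3.33% lower). The same control libraries enter both hairpin comparisons.

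Beyond the threshold for fold change of the study, a log2 value over 1, lay LEF1 and NKD1 in both hairpins together, these and AXIN2 under sh4, and none of the 8 under sh8. In limma 6 of the 8 had an unadjusted p under 0.05 under sh8, where 2 passed after adjustment. The share of all genes with an unadjusted p under 0.05 was not counted in any comparison, so such counts have no baseline here. The median log2 fold change of the 8 was 0.48 for both hairpins, 0.74 under sh4 and 0.33 under sh8, and that of all genes was -0.0063, -0.0076 and -0.0099. In 4 of the 8, LEF1, NKD1, AXIN2 and ZNRF3, all 4 GRASLND hairpin libraries lay above all 3 controls, which was true of 10.2% of all genes. The lowest LEF1, NKD1, ZNRF3 and CTNNB1 of the controls were those of shlacZ replicate 1. Without this library, 0 of 8 passed in both hairpins together, 7 under sh4, 3 under sh8 and 6 between hairpins. Of all 15420 genes, 697, 4865, 1600 and 1975 passed in these 4 comparisons, against 711, 3464, 451 and 1079 with all libraries.

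**Figure D3:**
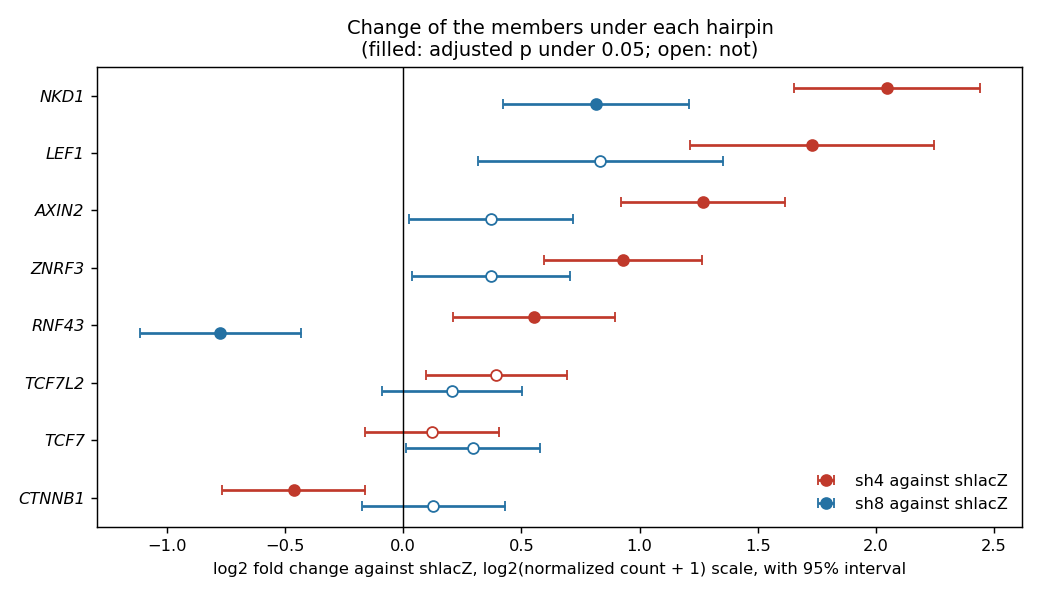
Points show the log2 fold change of each gene against shlacZ under sh4 (red) and sh8 (blue) on the log2(normalized count + 1) scale, with 95% intervals, filled where the adjusted p was under 0.05. The sh4 values run from 2.05 for NKD1 to -0.46 for CTNNB1, and RNF43 alone has passing values on both sides of 0 (0.55 and -0.77).

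Markers of the line were present. Of 6 melanocytic genes (MITF, SOX10, PMEL, MLANA, TYR and DCT) all had values, and their summed normalized count was 89664 to 99678 in shlacZ, 40674 to 49321 under sh4 and 68653 to 74504 under sh8. Under sh4, 5 of the 6 were lower, all but TYR, against 11.9% of all genes. Under sh8 none passed in limma (4 had an unadjusted p under 0.05). Between hairpins 5 were lower under sh4, against 3.33% of all genes. In both hairpins together only PMEL passed (log2 fold change -0.91, adjusted p = 0.0443). COL1A1, a fibroblast gene, had at most 16.4 normalized counts, and the other fibroblast, keratinocyte, immune and endothelial markers on the list were not analysed here. The melanocytic level thus moved with the same libraries as LEF1 and NKD1, and its part in these results was not tested. In bulk RNA, fewer cells of a type and less RNA per cell cannot be told apart.

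The remaining pathway was described by role with lists of 89 genes, of which 61 had values and 52 were tested. Under sh4, 9 were higher and 10 lower, with a median log2 fold change of 0.02. Under sh8, 1 was higher and 2 lower, in both hairpins together 3 were higher and 1 lower, and between hairpins 6 were higher under sh4 and 4 lower. Read against the shares of all genes given above, 19 of 52 passed under sh4 and 3 of 52 under sh8.

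Ligands, the secreted WNT proteins, were sparse. Of 18 listed, 5 had values, 3 were tested (WNT2B, WNT3 and WNT10B), and none passed in limma in any of the 4 comparisons (unadjusted p under 0.05 for 2 of them under sh4 and for 1 in each other comparison). Their mean in shlacZ was 45.8 normalized counts or less. WNT2B had 44.4, 18.9 and 27.8 in the shlacZ libraries, 113 and 46.3 under sh4 and 59.3 and 67.3 under sh8. Every GRASLND hairpin library lay above every control for WNT2B, sh4 replicate 2 by little. Its log2 fold change was 1.31 under sh4 (adjusted p = 0.0576) and 1.21 in both hairpins (0.0866). Under sh8 WNT2B was 2.09 times the control (adjusted p = 0.214). WNT10B went the other way under sh4 (log2 fold change -0.77, adjusted p = 0.107). The ligand secretion genes PORCN and WLS did not pass either (unadjusted p under 0.05 for 1 of them under sh4), nor did the 4 tested secreted antagonists (0 with an unadjusted p under 0.05 in any comparison). DKK1, an antagonist that binds LRP5 and LRP6, was below the minimum mean, with 0, 0 and 0.870 normalized counts in the shlacZ libraries, 11.3 and 30.6 under sh4 and 5.27 and 0 under sh8.

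Receptors moved in both directions. FZD7, a Frizzled receptor, rose by 1.08 on the log2 scale under sh4 (adjusted p = 0.00233) and by 0.84 in both hairpins (0.0383), and its sh8 value was 0.60 (0.0972). FZD6, another Frizzled receptor, split between the hairpins as RNF43 did, higher by 0.69 under sh4 (adjusted p = 0.0109) and lower under sh8 (log2 fold change -1.08, adjusted p = 0.00725), with a difference of 1.77 (0.00113). Its normalized counts were 305, 278 and 267 in the shlacZ libraries, 454 and 460 under sh4 and 130 and 137 under sh8, so the groups did not overlap. FZD5 fell under sh4 (-0.67, adjusted p = 0.00477), as did RYK, a coreceptor (-0.47, adjusted p = 0.0156), which also fell in both hairpins together (-0.44, adjusted p = 0.0461). LGR4, a receptor for R-spondins, which restrain RNF43 and ZNRF3, differed between hairpins by 0.62 (adjusted p = 0.0375) with a value of 0.22 under sh4 and -0.40 under sh8.

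In the destruction complex and its regulators, 4 of 13 genes passed under sh4, where 22.5% of all genes did. Of these 13, 1 was higher and 3 were lower, against 10.5% and 11.9% of all genes. In limma 0 passed under sh8 (2 with an unadjusted p under 0.05) or in both hairpins (5). TNKS, the tankyrase that marks AXIN proteins for degradation, rose by 0.72 under sh4 (adjusted p = 0.00186) and differed between hairpins by 1.05 (0.00188), while DVL2, a Dishevelled protein, fell (-0.79, adjusted p = 0.00620) and so did AMER1, a partner of APC (-0.73, adjusted p = 0.0138). DVL1, another Dishevelled gene, had -0.52 (adjusted p = 0.0287). The core components APC, GSK3B and CSNK1A1 did not pass under either hairpin.

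Among the nuclear partners, TLE4 was the gene that passed under both hairpins. TLE4, a Groucho corepressor that binds LEF1 and TCF factors, had 249, 165 and 182 normalized counts in the shlacZ libraries, 756 and 669 under sh4 and 378 and 461 under sh8. The groups did not overlap. TLE4 rose by 1.86 on the log2 scale under sh4 (adjusted p = 0.000291), 1.09 under sh8 (0.0196) and 1.47 in both (0.0172). BCL9L, a beta-catenin coactivator, rose by 1.21 under sh4 (adjusted p = 0.00115) and 0.93 in both hairpins (0.0340). PYGO1, which works with the BCL9 proteins, fell under sh4 (-0.98, adjusted p = 0.00195).

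Further genes known as WNT targets in some tissues did not move as a block. Of 7 tested, 3 were higher (PRICKLE1, APCDD1 and TNFRSF19) and 2 lower (NKD2 and MYC) under sh4, against 10.5% and 11.9% of all genes. APCDD1, an inhibitor of WNT at the membrane, rose by 1.06 (adjusted p = 0.00186) and TNFRSF19, a receptor of the TNF family, by 0.79 (0.00105). CCND1, the cyclin of the G1 phase, passed under sh8, where it fell (-0.90, adjusted p = 0.0195). MYC, a general growth regulator, had 3679, 4823 and 5178 normalized counts in the shlacZ libraries, 1740 and 1437 under sh4 and 3857 and 4289 under sh8. The sh4 libraries lay below all others, at -1.51 on the log2 scale against shlacZ for sh4 (adjusted p = 0.000287) and -0.15 for sh8 (0.663). NKD2, the paralog of NKD1, went the opposite way from it, from 135, 123 and 132 in the shlacZ libraries to 36.1 and 20.2 under sh4 and 88.3 and 92.8 under sh8. Its log2 fold change under sh4 was -2.22 (adjusted p = 0.000611). PRICKLE1, a planar polarity gene, rose by 3.47 under sh4 (adjusted p = 0.00170) from a low level of 6.90 ± 4.27 (SD, n = 3) normalized counts in shlacZ to 79.4 ± 19.7 (SD, n = 2).

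**Figure D4:**
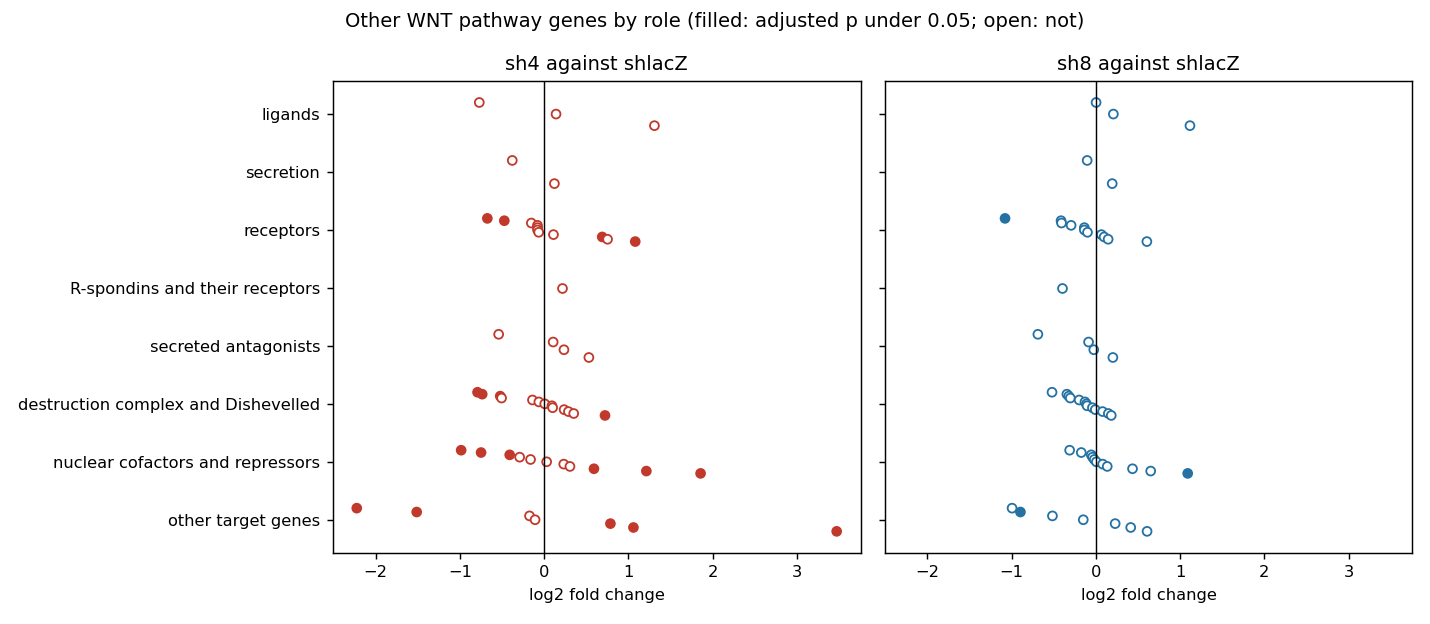
Each point is the log2 fold change against shlacZ of 1 tested pathway gene outside the 10 members, under sh4 (left) and sh8 (right), arranged by role and filled where the adjusted p was under 0.05. Under sh4, 9 filled points lie above 0 and 10 below, whereas under sh8 there are 1 and 2.

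The genes most like LEF1 over the 7 libraries were sought among the 12050 with a mean of at least 50, by Pearson correlation on the log2 scale. The first 5 were BRD3OS (r = 0.995), GSTO2 (0.992), GOLGA7B (0.991), CREB3L2 (0.991) and ZNRF3 (0.991). The same 5 came first with a pseudocount of 10. NKD1 ranked 17 (r = 0.981) and AXIN2 301 (0.931), whereas TCF7L2 (0.655), RNF43 (0.326), TCF7 (0.221) and CTNNB1 (-0.560) were far from the pattern. These values are descriptions over 7 libraries in 3 groups, in which any gene highest under sh4 and lowest in shlacZ correlates with LEF1.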

How the data were processed

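RNA was measured in 7 libraries of 501Mel cells. According to the study, ribosomal RNA was depleted, stranded read pairs were trimmed with Cutadapt, aligned to GRCh38 (hg38) with STAR and quantified with Salmon, and the authors passed the matrix to DESeq2. Versions and the annotation are not given in the sources used here. The authors deposited normalized counts, that is, counts divided by 1 size factor per library. All values were whole multiples of 1 read (within 0.01), which gave the reads counted to genes (13337317 to 22855232 per library). The least sum of reads of a gene in the table was 10, and 0 columns belonged to other samples. A shift shared by most RNAs would be lost in such scaling.

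Tests used limma 3.58.1 (R 4.3.3) with a variance trend on log2(normalized count + 1) for genes with a mean of at least 10, adjusted by Benjamini-Hochberg over all of them. Both hairpins (n = 4) were compared with shlacZ (n = 3) in a fit with 2 levels, the single hairpins in a fit with 3 groups. This scale understates changes of low genes. The scripts were tested on simulated data. Coordinates and exon lengths came from GENCODE release 44, in which 21281 of the gene identifiers were found.

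Named were the 10 members, GRASLND, genes overlapping a member (those with the largest values or clearest overlap are printed), per role list the 3 genes with the largest passing changes, and the 5 genes most like LEF1. WNT2B, WNT10B, DKK1, RYK, DVL1, APCDD1, TNFRSF19, CCND1, PMEL and genes named without values were chosen after their values were seen. The members and lists were chosen with earlier results of these data known. Alternatives covered the pseudocount, minimum mean, scaling, variance trend, replicate number, joint fit and each library left out. Limma-voom on the recovered reads and the canonical length were added after seeing the data.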

Additional observations from a re-analysis of the deposited data

Results flagged for a closer look

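For 4 of the 8 measured genes the effect differed between the hairpins in the direct limma test of sh4 against sh8. The log2 difference was 1.33 for RNF43 (adjusted p = 0.00256), with both sh4 libraries above and both sh8 libraries below all 3 controls. It was 1.23 for NKD1 (adjusted p = 0.00631) and 0.90 for AXIN2 (adjusted p = 0.0135), both of which were higher than shlacZ in all 4 hairpin libraries and higher under sh4 than under sh8. For CTNNB1 the difference was -0.59 (adjusted p = 0.0424), with the sh4 libraries below all others. This CTNNB1 call passed in only 1 of the 7 fits with a library left out. Among all genes tested, 7.0% differed between the hairpins. The remaining GRASLND did not differ between them past the threshold (-0.34, 95% interval -0.84 to 0.16, adjusted p = 0.421). A search for single libraries far from the rest says nothing here, since no hairpin has more than 2 libraries.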

How the results depend on the processing

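Of 520 single values of the measured genes under an alternative, 447 kept their direction and side of the threshold, 50 lost the threshold, 18 gained it and 5 changed sign, none of which had passed. The last were RNF43 in both hairpins (0.12 without sh8 replicate 1 and 0.098 without sh8 replicate 2, in a range of -0.34 to 0.12 over the libraries left out), CTNNB1 in both hairpins (0.054 under quantile normalization), TCF7 under sh4 (-0.0089 without sh4 replicate 1, range -0.0089 to 0.25) and CTNNB1 under sh8 (-0.018 without sh8 replicate 2, range -0.018 to 0.27). Leaving out a library moved the number of members that passed between 0 and 3 in both hairpins (main 2), 4 and 7 under sh4 (6), 0 and 3 under sh8 (2) and 1 and 6 between hairpins (4). For the genes of the role lists it was 0 to 4 in both hairpins (4), 12 to 22 under sh4 (19), 0 to 4 under sh8 (3) and 3 to 14 between hairpins (10). The number of all genes that passed also moved with the library left out. Without the variance trend 0, 0 and 2 members passed in both hairpins, under sh8 and between hairpins, and 0, 1 and 5 role genes. Of all 15420 genes, 138, 59 and 476 passed in these comparisons without the trend. The mean of both hairpins from the fit with 3 groups counts the difference between hairpins out of the spread. It gave 4 members (LEF1, NKD1, AXIN2 and ZNRF3) and 15 role genes. Of all genes 2534 passed in that fit, against 711 in the main fit. The mean LEF1 share was 69.5% under sh4 and 55.5% under sh8 with canonical lengths and 68.6% and 54.8% undivided by length, and lay between 72.3% and 79.5% and between 63.6% and 64.9% with a library left out.

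Deviations from the group mean correlated at -0.078 to 0.337 between samples with the same replicate number. Between samples with different numbers the range was -0.337 to 0.232. With 2 libraries per hairpin, their deviations mirror each other, so these values cannot show whether the numbers pair samples. No pairing was assumed in the main fit. With the replicate number as a block, 0 members and 0 role genes passed in both hairpins (LEF1 adjusted p = 0.131, NKD1 0.184) and 6 role genes under sh8, 5 members under sh4, 3 under sh8 and 6 between hairpins. Replicate number 3 occurs only in shlacZ, so the block also takes that library out of the comparison. Over all genes 711 passed in both hairpins, 88 without shlacZ replicate 3 and 42 with the block. In the single comparisons with the block, 3376 of all genes passed under sh4, 574 under sh8 and 1467 between hairpins. Only 2 libraries per hairpin limit these data, and counting error is small at these levels.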
